A study of Mus musculus with 4 samples.

Results

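The replication-dependent histone genes of mouse splenic helper T cells were described in 4 RNA-seq libraries. The members were all rows of the deposited tables whose symbol begins with Hist1 to Hist4, the names of the histone gene clusters, followed by h and a histone type (1, 2a, 2b, 3 or 4). They were 73 rows of 68 gene symbols, of 23700 rows and 23234 symbols in all. By histone type they were 6 rows of the linker histone H1, 22 of H2A, 19 of H2B, 12 of H3 and 14 of H4. By cluster, 57 rows belonged to Hist1, 12 to Hist2, 3 to Hist3 and 1 to Hist4.

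The series compared CD4+ T cells of wild-type mice (WT, 2 libraries) with those of mice lacking RIPK1, a kinase of cell death and inflammatory signalling, in T cells only (KO, 2 libraries). All mice were of the C57BL/6 strain and 43 weeks old. The labels name neither the Cre driver nor any treatment, and every title ends in "Ctrl", which they do not explain. Nothing in them says that the 2 libraries of a group are separate animals. The p-values therefore rest on library-to-library spread, part or all of which may be technical.

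Cells make most of their histone protein while DNA is copied, from clustered genes that have no introns. DNA wraps around a core of H2A, H2B, H3 and H4, and H1 binds the linker DNA between cores. Their mRNAs end in a conserved stem-loop instead of a poly(A) tail. The stem-loop-binding protein SLBP holds this structure through processing, translation and decay. Some of these genes also give polyadenylated transcripts, mainly in cells that have stopped dividing.

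The stem-loop is shown for 5 members of high level or of different type, because it marks these genes and differs between H4 and the other types. Capitals mark the 16 bases of the hairpin, 6 paired bases on each side of a loop of 4, within a site of 26 bases read 5′ to 3′ from GENCODE M21 transcripts of GRCm38.
Hist1h2ao (H2A): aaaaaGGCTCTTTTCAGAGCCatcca
Hist1h1c (H1): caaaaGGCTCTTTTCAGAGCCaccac
Hist3h2ba (H2B): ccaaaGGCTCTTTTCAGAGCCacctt
Hist1h3g (H3): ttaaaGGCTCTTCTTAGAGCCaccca
Hist4h4 (H4): acaaaGGCCCTTTTCAGGGCCcacaa
A hairpin of this shape followed the coding sequence in 45 of the 68 symbols, against 2.0% of 21877 coding genes with one anywhere in their longest transcript. The form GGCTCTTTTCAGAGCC was found in 25 symbols, 10 of them H2A and none of them H4. The form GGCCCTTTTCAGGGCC was found in 7 symbols, all H4. The form shown for Hist1h3g was found in that 1 symbol only, and 5 H3 genes carried the form shown for Hist1h2ao. Of the 23 symbols without a hairpin, 11 have a reference transcript that holds the coding part only, so its absence there says nothing about the gene. The transcripts of Hist1h2af (399 bases, 393 of them coding) and Hist1h2ah (405 and 387) are hardly longer than the coding part. The search took only 6 exact pairs starting with GG and a loop starting with T, so variant hairpins were not counted.

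The H2A copies of the Hist1 cluster are almost the same sequence, which bears on every value given for them. Bases 211 to 300 of the coding sequence are shown for 5 H2A genes, with capitals where a copy differs from Hist1h2ao.
Hist1h2ao: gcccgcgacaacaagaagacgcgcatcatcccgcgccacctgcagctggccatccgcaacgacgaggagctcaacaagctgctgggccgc
Hist1h2ad: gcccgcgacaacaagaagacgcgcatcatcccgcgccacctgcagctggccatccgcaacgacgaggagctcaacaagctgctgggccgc
Hist1h2ak: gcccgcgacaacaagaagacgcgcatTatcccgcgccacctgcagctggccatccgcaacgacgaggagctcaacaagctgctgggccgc
Hist2h2aa1: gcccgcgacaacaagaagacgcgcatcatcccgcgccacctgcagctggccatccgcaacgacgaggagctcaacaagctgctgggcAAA
Hist3h2a: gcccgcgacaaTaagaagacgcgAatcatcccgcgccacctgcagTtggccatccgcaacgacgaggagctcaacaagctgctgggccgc
Over the whole coding sequence, Hist1h2ao differed from Hist1h2ad at 3 bases, from Hist1h2ak at 12, from Hist2h2aa1 at 34 and from Hist3h2a at 45. Among the 11 Hist1 H2A copies of equal coding length, which leave out the divergent Hist1h2aa and the shorter Hist1h2ah, the 55 pairs were 96.18 to 100% identical, with a median of 98.22%. Of the stretches of 50 bases in the reference transcript, 6.50% occurred in no other gene for Hist1h2ao and 43.0% for Hist1h2ak. The median share of such unique stretches was 98.9% for H1, 27.0% for H2A, 54.7% for H2B, 38.0% for H3 and 60.5% for H4. No source used here states how the authors assigned reads that fit several copies, so the value of a single copy is uncertain and copies are not independent observations.

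Promoters are shown for 2 H2A genes that rose and for Hist4h4, as the types carried different short motifs. The stretch runs from 130 bases to 1 base before the RefSeq start in GRCm38.p6, on the strand of the gene. Capitals mark TATAAA on the gene's strand 45 to 15 bases before the start, and CCAAT, the octamer ATTTGCAT and GGTCCG on either strand.
Hist1h2ab (H2A): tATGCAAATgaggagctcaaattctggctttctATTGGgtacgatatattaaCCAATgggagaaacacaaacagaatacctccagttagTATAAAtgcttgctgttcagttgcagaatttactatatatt
Hist1h2an (H2A): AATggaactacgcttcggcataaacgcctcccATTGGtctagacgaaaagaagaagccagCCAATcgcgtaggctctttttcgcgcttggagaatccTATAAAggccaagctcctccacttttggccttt
Hist4h4 (H4): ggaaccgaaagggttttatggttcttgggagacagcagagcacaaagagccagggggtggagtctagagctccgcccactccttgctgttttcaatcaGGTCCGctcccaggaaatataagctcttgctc
In the 250 bases before the start, CCAAT occurred in 82.3% of 62 matched histone promoters and in 34.5% of all 27025. All 18 H2A, 16 H2B and 6 H1 promoters held it, against 3 of 12 H4 promoters. The octamer occurred in 7 of 18 H2A and 6 of 16 H2B promoters, in no H1, H3 or H4 promoter, and in 1.61% of all promoters. GGTCCG occurred in 9 of 12 H4 promoters, in no H2A promoter and in 6.82% of all. TATAAA occurred in 24.2% of the histone promoters (6 of 18 H2A and 1 of 12 H4) and in 2.36% of all. Of the H2A genes that rose, the 2 shown hold it in that window. Hist1h2ad, Hist1h2ag, Hist1h2ah, Hist1h2ai, Hist1h2ak and Hist1h2ao do not. These matches describe letters, not bound sites.

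The libraries held about 20900000 (WT 1), 21800000 (WT 2), 17000000 (KO 1) and 19000000 (KO 2) fragments, as estimated from the steps between low FPKM values (a level scaled to transcript length and library size). On a transcript of 480 bases, 1 FPKM stood for about 4.78 to 10.4 fragments, so most H2B and H3 values rest on a few fragments. The targeted gene went against its label: Ripk1 was at 5.61 and 5.60 FPKM in the WT libraries and at 10.4 and 9.54 in those labelled KO (log2 difference 0.73 ± 0.17 SE, limma adjusted p = 0.0262). FPKM summed over a gene cannot show whether some of its exons were deleted. After trimmed-mean scaling the Ripk1 difference was 0.33 (limma adjusted p = 0.206). All directions below are therefore between the libraries labelled KO and WT. The T cell markers Cd3d, Cd3e, Cd3g and Cd4 summed to 595 to 764 FPKM in WT and 816 to 893 in KO libraries. Erythroid markers summed to 6.33 and 99.1 FPKM in WT and 393 and 319.9 in KO, with Alas2 and Slc4a1 at 0 in WT 1. B cell markers summed to 4.36 and 4.82 in WT and 9.21 and 9.05 in KO, and myeloid markers to 1.99 and 3.18 and 5.81 and 6.82. CD8 T cell markers summed to 10.7 to 11.6 in the 4 libraries, plasma cell markers to 14.2 and 20.3 in WT and 25.3 and 30.6 in KO, and NK cell markers to at most 1.08.

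Most histone rows were low. Of the 73 rows, 38 had a mean of at least 1 FPKM over the 4 libraries, 11 of at least 5 and 4 of at least 10. The rows of highest mean were Hist1h1c at 15.3, the 2 rows of Hist1h2ao at 12.3 each and Hist4h4 at 11.5. H2A had the highest median row in all libraries, from 2.42 FPKM in WT 1 to 6.22 in KO 1. The median H3 row lay between 0.268 and 0.883 FPKM and the median H2B row between 0.346 and 0.834. Hist1h1t, a linker histone of the testis, was listed at 0 in every library. All 73 rows together took 0.0347 and 0.0464% of the summed FPKM of the table in WT and 0.0701 and 0.0564% in KO.

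**Figure D1:**
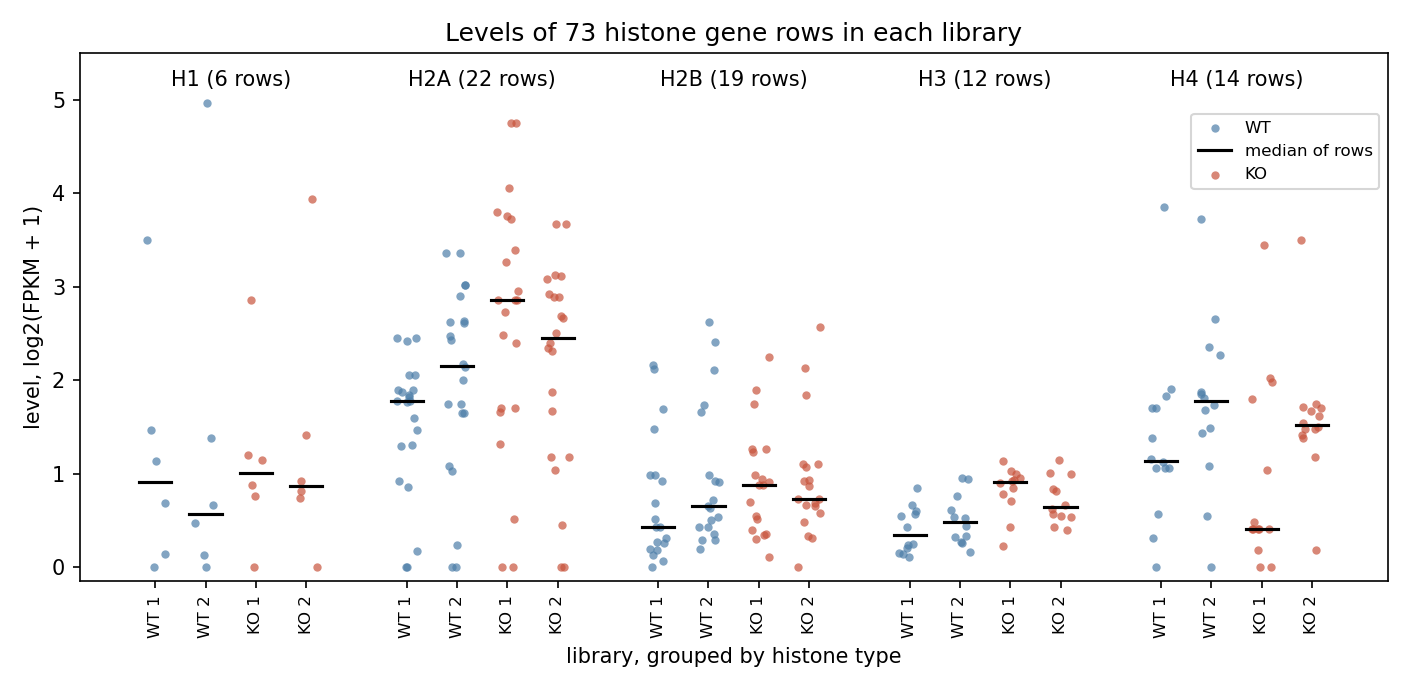
Levels of the 73 histone rows, as log2(FPKM + 1) on the vertical axis, in each library (horizontal axis, grouped by histone type). Points are rows and black lines are the median of the rows of a type in that library. The H2A median is 2.42 FPKM in WT 1 and 6.22 in KO 1, while most H2B and H3 rows stay under 1 FPKM.

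In the test across the table, H2A was the type with most rows higher in the libraries labelled KO. Rows with at least 1 FPKM in at least 2 libraries were tested with limma on log2(FPKM + 1), and 40 of the 73 histone rows passed that filter (2 H1, 19 H2A, 4 H2B, 1 H3 and 14 H4). At a limma adjusted p under 0.05, 10 histone rows were higher and 0 lower in KO, while 25.6% of the 11074 rows tested were higher and 1.0% lower. The 10 rows were 9 of H2A and 1 of H3. At an unadjusted p under 0.05, 12 histone rows passed, all of them higher in KO. The share of histone rows that passed, 10 of 40, was near that of all rows, and that of H2A rows was 47.4%. The median difference of the 40 rows was 0.03 on the log2 scale, against 0.38 for all rows tested. By type it was 0.95 for H2A, -0.48 for H1, -0.19 for H2B and -0.35 for H4. Both KO libraries lay above both WT libraries in 13 of the 40 rows and below them in 2, against 58.5% and 12.1% of all rows tested.

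How many rows passed depended on the scaling of the libraries. With a trimmed-mean scaling that brings the median of all rows to 0.00, 4.11% of all rows were higher and 3.63% lower in KO, and 0 histone rows passed in limma, with 18 at an unadjusted p under 0.05 (10 higher, 8 lower). With quantile normalization 1.62% were higher and 0.695% lower, and 0 histone rows passed, with 12 at an unadjusted p under 0.05 (5 higher, 7 lower). Relative to the median of all rows, the H2A median was 0.57 higher as deposited, 0.57 higher with trimmed-mean scaling and 0.49 higher with quantile normalization. With a trend on transcript length removed, 24.0% of all rows were higher and 0.677% lower, and 14 histone rows were higher and 0 lower. The median of the 40 rows was then 0.50.

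**Figure D2:**
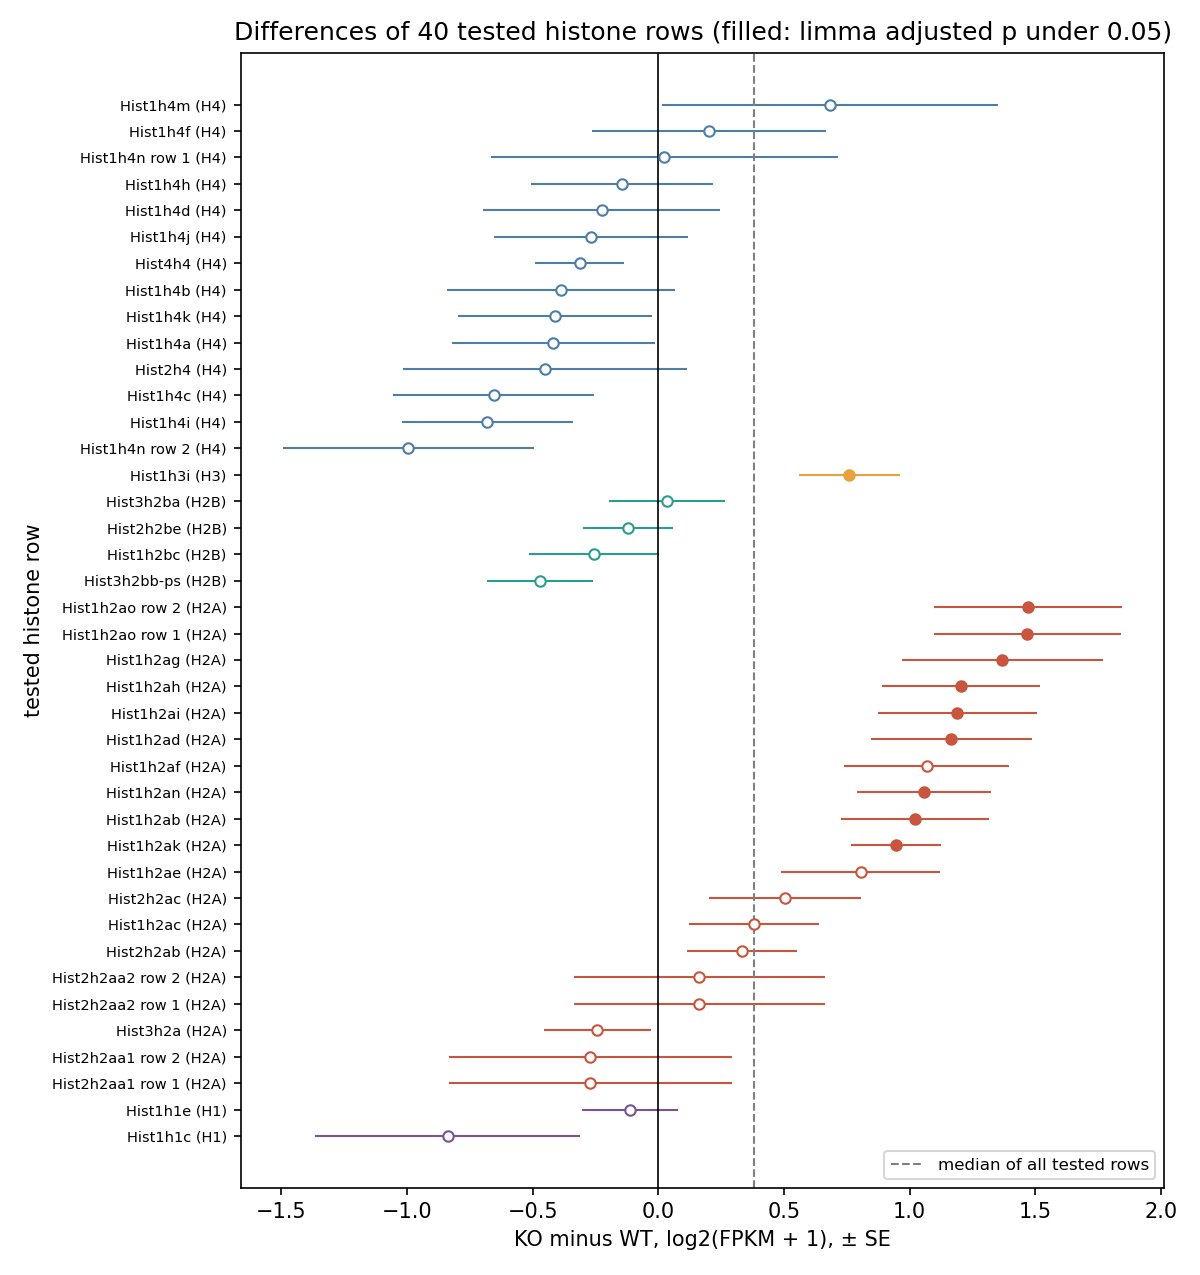
Difference between KO and WT libraries in log2(FPKM + 1) on the horizontal axis, with its SE, for the 40 tested histone rows, listed on the vertical axis with their type. Filled points passed at a limma adjusted p under 0.05, and the dashed line is the median of all tested rows (0.38). The 9 filled H2A rows lie between 0.95 and 1.47.

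The H2A rows that rose were all copies of the Hist1 cluster, a split by cluster that was made after the values were seen. Of 15 Hist1 H2A rows, 12 were tested and 9 rose, of 8 symbols, since Hist1h2ao has 2 nearly equal rows. H2A forms a dimer with H2B in the nucleosome core, and these genes encode its canonical, replication-coupled form. Hist1h2ao read 4.48 (WT 1), 7.13 (WT 2), 25.9 (KO 1) and 11.7 FPKM (KO 2). Both KO values were above both WT values, and KO 1 was far above the other libraries. The difference was 1.47 ± 0.37 (SE) on the log2(FPKM + 1) scale, a ratio of mean FPKM of 3.24 (limma adjusted p = 0.0323). Hist1h2ag read 2.40 and 4.57 FPKM in WT and 15.7 and 6.59 in KO (1.37 ± 0.40, limma adjusted p = 0.0461). Hist1h2ak, the rising copy with most unique sequence, read 2.70 and 2.34 FPKM in WT and 6.24 and 5.35 in KO. Its groups had the narrowest spread of the 9 rows, and its difference was 0.95 ± 0.18 (ratio 2.30, limma adjusted p = 0.0173).

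The other rising copies read alike. Hist1h2ah read 2.72 and 5.09 FPKM in WT and 12.9 and 7.69 in KO (1.21 ± 0.31, limma adjusted p = 0.0343). Hist1h2ai read 2.58 and 5.17 in WT and 12.2 and 7.69 in KO (1.19 ± 0.32, limma adjusted p = 0.0359). Hist1h2ad read 2.66 and 5.20 in WT and 12.5 and 7.48 in KO (1.17 ± 0.32, limma adjusted p = 0.0393). These 3 copies had almost equal FPKM in each library. Hist1h2an read 2.54 and 3.39 in WT and 9.48 and 5.42 in KO (1.06 ± 0.27, limma adjusted p = 0.0318). Hist1h2ab read 1.47 and 3.01 in WT and 6.72 and 4.28 in KO (1.02 ± 0.29, limma adjusted p = 0.0440). In all 9 rows the groups did not overlap, but these rows were picked by a test on the same values. Both KO libraries lay above both WT libraries in 58.5% of all tested rows. Of the Hist1 H2A rows that were tested and did not pass, Hist1h2af read 1.76 and 3.52 in WT and 8.63 and 4.69 in KO (1.07, limma adjusted p = 0.0527). Hist1h2ae and Hist1h2ac had differences of 0.81 and 0.38 (limma adjusted p = 0.10 and 0.292).

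Within each group the libraries differed widely. Over all 15 Hist1 H2A rows, KO 1 was the highest library in 13 and WT 1 the lowest in 14. Over the 9 rows that rose, KO 1 was 2.23 to 3.64 times WT 2, while KO 2 was 1.42 to 2.28 times WT 2. KO 1 was 1.17 to 2.38 times KO 2. Each fit with 1 library left out leaves 1 library in a group. The median difference of the 12 tested Hist1 H2A rows was 0.82 without WT 1 and 1.485 without WT 2. It was 0.82 without KO 1 and 1.47 without KO 2, against 1.12 with all 4 libraries. Without WT 1 only 9 genes of the whole table passed as higher and 0 as lower. After trimmed-mean scaling the 12 tested Hist1 H2A rows all kept a difference above 0, with a median of 0.74, and after quantile normalization 11 of 12 did.

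No H2A row outside the Hist1 cluster passed. Their 7 rows summed to 19.0 and 34.7 FPKM in WT and 28.7 and 25.5 in KO. The ratio of means was 1.01, with rows on both sides of 1 pooled. Hist2h2aa1 and Hist2h2aa2 each hold 2 of the 7 rows, equal in all 4 libraries, so each is counted 2 times. The 15 Hist1 H2A rows summed to 29.6 and 50.2 FPKM in WT (39.9 ± 14.5, SD, n = 2) and to 143 and 76.7 in KO (110 ± 46.8, SD, n = 2), a ratio of 2.75. Both of the nearly equal rows of Hist1h2ao are in this sum. Hist3h2a read 4.35 and 6.44 FPKM in WT and 4.58 and 4.09 in KO (-0.24 ± 0.21, limma adjusted p = 0.407). Hist2h2ab, which differs from Hist1h2ao at 65 coding bases and was chosen after its values were seen, read 1.45 and 1.03 FPKM in WT and 1.49 and 2.18 in KO (0.33 ± 0.22, limma adjusted p = 0.275). Hist2h2ac, likewise, read 2.03 and 4.39 in WT and 5.64 and 3.95 in KO (0.51 ± 0.30, limma adjusted p = 0.237). Whether the 2 sets of H2A genes differed in their response was not tested.

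**Figure D3:**
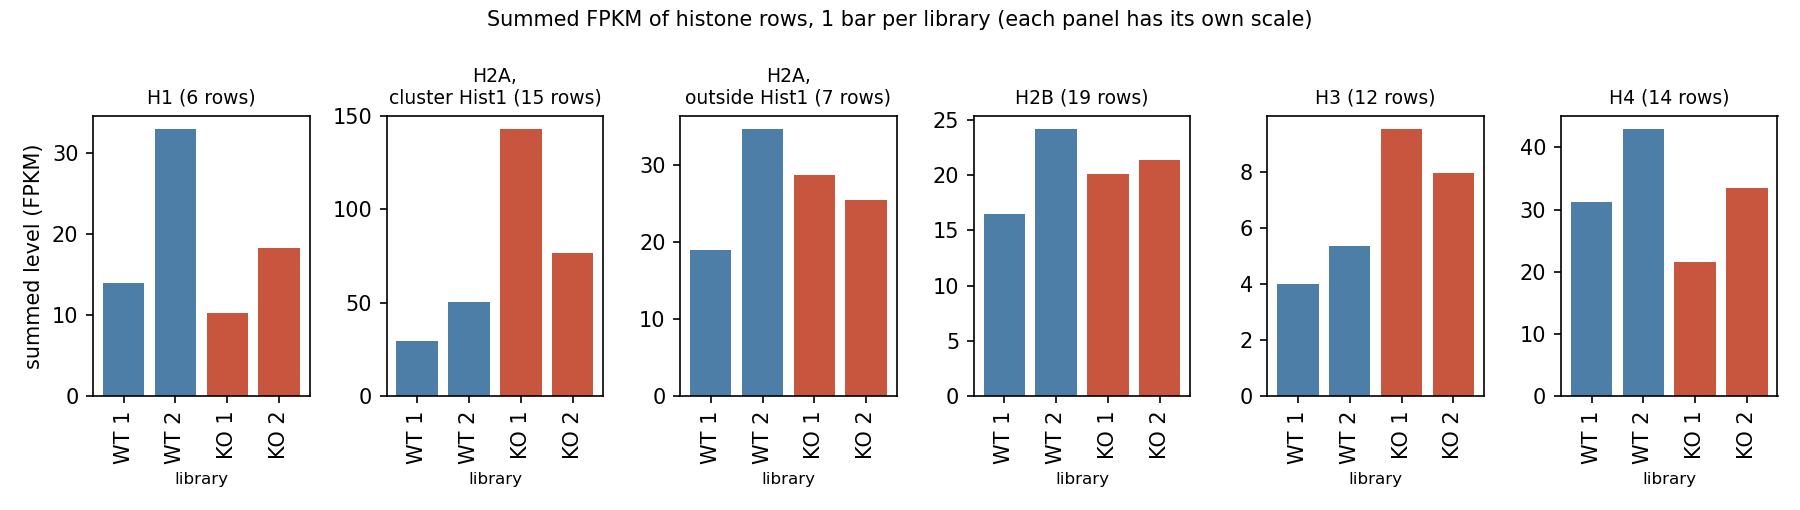
Summed FPKM (vertical axis, from 0, with a scale of its own in each panel) of the histone rows of each type in the libraries WT 1, WT 2, KO 1 and KO 2, 1 bar per library with no error bar (blue for WT, red for KO). The H2A panels split the rows by cluster: the Hist1 rows sum to 29.6 to 50.2 in WT and 76.7 to 143 in KO, and the other H2A rows to 19.0 to 34.7 and 25.5 to 28.7.

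H1 was dominated by Hist1h1c, a linker histone gene that is also expressed outside S phase. Hist1h1c read 10.3 and 30.3 FPKM in WT and 6.23 and 14.4 in KO. The groups overlapped, and the difference was -0.84 ± 0.53 (limma adjusted p = 0.258). The value rested on single libraries: without KO 2 it was -1.38 (limma adjusted p = 0.00129), without WT 1 -1.57 (0.134), without WT 2 -0.11 (0.876) and without KO 1 -0.29 (0.640). Hist1h1e read 1.76 and 1.60 in WT and 1.30 and 1.67 in KO (-0.11 ± 0.19, limma adjusted p = 0.672). Hist1h1b, the linker histone H1.5, was under the filter: 0.0992 and 0.0961 FPKM in WT against 1.21 and 0.886 in KO. Its groups did not overlap, but its WT values rest on very few fragments and it was not tested. It was chosen after its values were seen. Both KO libraries lay above both WT libraries in 58.5% of all tested rows, a set that leaves it out. Hist1h1a read 1.20 and 0.580 FPKM in WT and 0.833 and 0.669 in KO, also under the filter. The 6 H1 rows summed to 14.0 and 33.0 FPKM in WT and 10.3 and 18.3 in KO, a ratio of means of 0.609. Without Hist1h1c the other 5 summed to 3.67 and 2.66 and to 4.04 and 3.98.

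No tested H2B row passed. The 3 highest were Hist3h2ba, Hist2h2be and Hist1h2bc. Hist3h2ba read 3.35 and 5.13 FPKM in WT and 3.74 and 4.92 in KO (0.04 ± 0.23, limma adjusted p = 0.915), a difference that turned to -0.33 after trimmed-mean scaling. Hist2h2be read 3.48 and 3.31 in WT and 2.72 and 3.39 in KO (-0.12, limma adjusted p = 0.632), and Hist1h2bc read 2.22 and 4.29 in WT and 2.35 and 2.57 in KO (-0.25, limma adjusted p = 0.476). All 3 had overlapping groups. The fourth tested row, Hist3h2bb-ps, whose symbol marks a pseudogene, read 1.77 and 2.15 in WT and 1.40 and 0.891 in KO, with no overlap (-0.47 ± 0.21, limma adjusted p = 0.135). The 19 H2B rows summed to 16.4 and 24.1 FPKM in WT and 20.1 and 21.4 in KO, a ratio of 1.02 (on the log2 scale 0.03, and -0.42 after trimmed-mean scaling). The other 15 rows were under the filter.

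H2A and H2B genes often stand head to head with a shared promoter region, and 10 such pairs lie within 1000 bases in the reference annotation. In 7 of them the H2A gene rose, and in 0 of the 10 was the H2B partner tested. The 7 partners of rising H2A genes read between 0.134 and 1.39 FPKM, and the H2A mean was 7.20 to 15 times that of its partner. In 5 of these 7 partners both KO libraries were above both WT libraries. The share was 58.5% among all tested rows, a set that leaves out these low partners. Hist1h2bl, the partner of Hist1h2ai, read 0.244 and 0.341 FPKM in WT and 1.39 and 0.656 in KO. Hist1h2bp, the partner of Hist1h2an, read 0.134 and 0.145 in WT and 0.921 and 0.258 in KO. Both pairs were chosen after their values were seen.

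The H3 rows were all under 1 FPKM on average. Only Hist1h3i was tested, and it reached 1 FPKM in the KO libraries alone, so it passed the filter through the group where it is high and had to differ. It read 0.348 and 0.257 FPKM in WT and 1.20 and 1.21 in KO (0.76 ± 0.20, limma adjusted p = 0.0347). Hist1h3e read 0.155 and 0.924 in WT and 0.869 and 1.01 in KO, and Hist1h3b read 0.579 and 0.688 in WT and 1.0 and 0.587 in KO. In 7 of the 12 H3 rows both KO libraries were above both WT libraries and in 1 below. Among all tested rows, which hold only 1 of these 12, the shares were 58.5 and 12.1%. The 12 rows summed to 3.99 and 5.35 FPKM in WT and 9.50 and 7.93 in KO, a ratio of 1.87.

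None of the 14 tested H4 rows passed. The difference was below 0 in 11 of them (in 13 after trimmed-mean scaling and in 5 with the length trend removed). Without KO 1, which leaves 1 KO library, it was below 0 in 5, and the H4 median turned from -0.35 to 0.21. The median H4 row read 1.20 (WT 1), 2.42 (WT 2), 0.33 (KO 1) and 1.87 FPKM (KO 2). Hist4h4, the highest, read 13.4 and 12.2 FPKM in WT and 9.91 and 10.3 in KO. Its groups did not overlap, and its difference was -0.31 ± 0.18 (limma adjusted p = 0.217). Hist1h4d read 1.22 and 5.31 in WT and 2.96 and 1.60 in KO (-0.23, limma adjusted p = 0.735). Hist1h4i read 1.61 and 2.66 in WT and 0.393 and 1.67 in KO (-0.68, limma adjusted p = 0.170). In KO 1, 5 of the H4 rows (Hist1h4a, Hist1h4b, Hist1h4c, Hist1h4j and Hist1h4k) carried the same value of 0.330 FPKM. In WT 1, Hist1h4a, Hist1h4b and Hist1h4k carried the same value of 1.08 FPKM. The 14 rows summed to 31.2 and 42.9 FPKM in WT and 21.6 and 33.4 in KO, a ratio of 0.743. Of the summed histone FPKM, H4 made up 27.3 and 22.6% in WT and 9.29 and 18.2% in KO, and H2A 42.5 and 44.6% and 73.6 and 55.8%.

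Copies with identical coding sequences had nearly equal values in some cases and very unequal ones in others. How their reads were divided is not stated, and their transcripts can differ outside the coding part. Hist1h2bq read 0.974 and 0.972 FPKM in WT and 0.834 and 1.15 in KO. Hist1h2br, with the same coding sequence, read 0.974 and 0.898 in WT and 0.832 and 1.15 in KO. Hist1h2ao and Hist1h2ap encode the same sequence, yet the 2 rows of Hist1h2ap were listed between 1.87e-05 and 7.12e-05 FPKM in every library while Hist1h2ao held all the signal. The 4 rows together, with both of the nearly equal rows of Hist1h2ao, read 8.96 and 14.2 FPKM in WT and 51.7 and 23.4 in KO. Hist1h4m was listed at 2.77e-05 FPKM in WT 1 and at 4.12 in WT 2, and at 3.05 and 2.26 in KO. The second row of Hist1h4n, which has the same coding sequence, read 2.25 and 3.82 in WT and 2.48 and 0.136 in KO (-0.99 ± 0.50, limma adjusted p = 0.171). The 3 rows of this pair summed to 4.50 and 7.95 FPKM in WT and 5.53 and 4.75 in KO. Hist2h2aa1 read 2.42, 9.26, 2.26 and 6.40 FPKM in WT 1, WT 2, KO 1 and KO 2, where Hist2h2aa2 read 3.15, 2.13, 6.22 and 1.25. Their 4 rows summed to 11.1 and 22.8 in WT and 17.0 and 15.3 in KO, a ratio of 0.951. Each symbol has 2 rows, equal in all 4 libraries, so each value is counted 2 times.

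**Figure D4:**
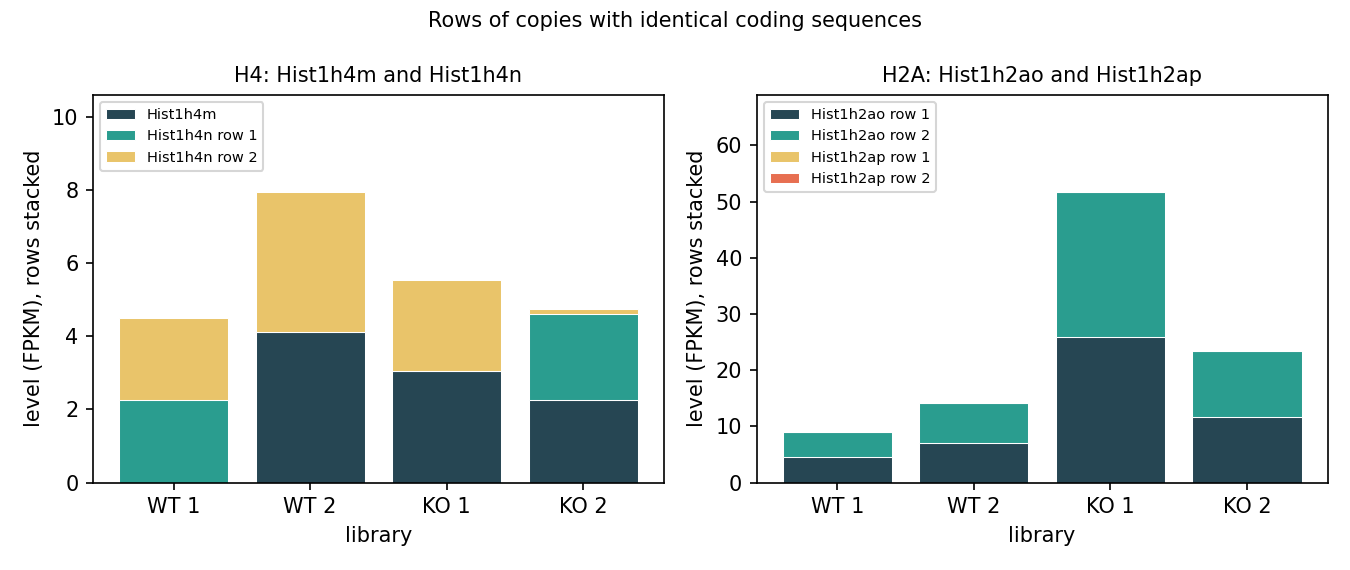
FPKM (vertical axis) of the rows of copies with identical coding sequences, stacked, in each library (horizontal axis), 1 bar per library with no error bar. The left panel shows Hist1h4m and Hist1h4n and the right panel Hist1h2ao and Hist1h2ap. Hist1h2ao holds nearly all of its pair in every library, while the division between Hist1h4m and the rows of Hist1h4n changes from library to library.

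Many reference transcripts of these genes end close to the stem-loop, as the processed replication-dependent mRNAs do, and others well past it. Each row holds 1 value for the gene. In 21 symbols the longest protein-coding reference transcript ends within 60 bases of the stem-loop, and their median mean level was 1.40 FPKM. In 18 symbols it runs 300 bases or more past it, with a median of 1.24 FPKM, among them Hist1h1c, Hist3h2a and Hist4h4. The labels name total RNA as input and do not say whether poly(A) selection or ribosomal RNA removal was used, so these kinds of transcript cannot be told apart here.

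The machinery that makes and ends histone mRNA moved about as much as the median gene. Of 20 genes of histone mRNA processing, 19 were tested, 4 rose in KO and 0 fell in limma as deposited, where 25.6% of all rows were higher. With trimmed-mean scaling or quantile normalization 0 of these genes passed. Their median difference was 0.48, against 0.38 for all rows tested. The 4 were Hinfp, which binds the H4 promoter element, Gon4l, the scaffold protein Sympk of the cleavage complex and the decay helicase Upf1. Hinfp read 1.69 and 1.85 FPKM in WT and 3.77 and 4.36 in KO (0.87 ± 0.18, limma adjusted p = 0.0200). Casp8ap2, a coactivator at histone loci, had a difference of 0.60 with a limma adjusted p of 0.05004, just above the threshold. Slbp and Npat, named for their role and not by the rule for named genes, had limma adjusted p of 0.128 and 0.0872. Slbp read 14.4 and 23.8 FPKM in WT and 28.3 and 29.1 in KO.

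Of 20 histone chaperone genes, all tested, 6 rose and 0 fell, where 25.6% of all rows were higher. Trimmed-mean scaling left 1, and quantile normalization 0. Asf1b, which carries new H3 and H4 in dividing cells, read 1.07 and 1.45 FPKM in WT and 9.71 and 5.44 in KO (1.88 ± 0.27, limma adjusted p = 0.0129). Chaf1a, a subunit of the CAF-1 complex that loads H3 and H4 at replication forks, read 0.330 and 0.770 in WT and 3.89 and 1.83 in KO (1.28 ± 0.30, limma adjusted p = 0.0272). It passed the filter only through the KO libraries, so it had to differ. Cabin1, Atrx and Hira, which act in replication-independent deposition, had differences of 1.01, 0.83 and 0.76 (limma adjusted p = 0.0142, 0.0233 and 0.0294).

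Of 11 replacement histone genes, which are expressed outside S phase and were no members, 9 were tested and 1 rose. Of all rows, 25.6% were higher. H1f0, a linker histone of non-dividing and differentiating cells, read 3.59 and 5.62 FPKM in WT and 23.5 and 16.4 in KO (1.91 ± 0.26, limma adjusted p = 0.0129, and 0.0245 after trimmed-mean scaling). Cenpa, H2afx, H2afy and H2afz had limma adjusted p of 0.0510, 0.0788, 0.169 and 0.262. H2afz read 114 and 209 FPKM in WT and 238 and 206 in KO, a level above that of every replication-dependent row.

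Of 30 S phase genes, 28 were tested, 18 rose and 0 fell, where 25.6% of all rows were higher. Trimmed-mean scaling left 4 higher, and quantile normalization 0. Of the 18, 2 passed the filter only through the KO libraries. Not all of the list read higher: the abundant Tyms, which makes thymidylate, read 365 and 273 FPKM in WT and 234 and 204 in KO (-0.53, limma adjusted p = 0.165), and Pcna, the sliding clamp, had a difference of 0.09 (limma adjusted p = 0.842). Both were chosen after their values were seen. The list summed to 552 and 544 FPKM in WT and 638 and 544.5 in KO, so its sum overlapped between the groups. Tk1, the salvage kinase for thymidine, read 1.88 and 1.08 FPKM in WT and 9.14 and 6.60 in KO (1.84 ± 0.24, limma adjusted p = 0.0127). Lig1, Mcm7, Mcm6 and Ccna2 had differences of 1.75, 1.35, 1.47 and 1.54. Of 18 genes of G2 and mitosis, 17 were tested, 14 rose and 0 fell, and 4 rose after trimmed-mean scaling and 2 with quantile normalization. Of the 14, 6 were under 1 FPKM in both WT libraries and passed the filter only through the KO libraries, so they had to differ. Among the 11 tested rows that reached 1 FPKM in a WT library, 8 rose. Mki67, the proliferation antigen Ki-67, is one of the 6: it read 0.939 and 0.937 FPKM in WT and 21.7 and 9.39 in KO (2.99 ± 0.35, limma adjusted p = 0.0111). Bub1b and Cdk1, also among the 6, had differences of 1.77 and 1.41. Top2a, the topoisomerase that untangles sister DNA, and the cyclin gene Ccnb2 reached 1 FPKM in a WT library and had differences of 2.89 and 2.11. The G2 and mitosis list summed to 34.6 and 31.1 FPKM in WT and 158 and 75.9 in KO, with KO 1 above KO 2. Whether either list varied together with the H2A rows was not tested.

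**Figure D5:**
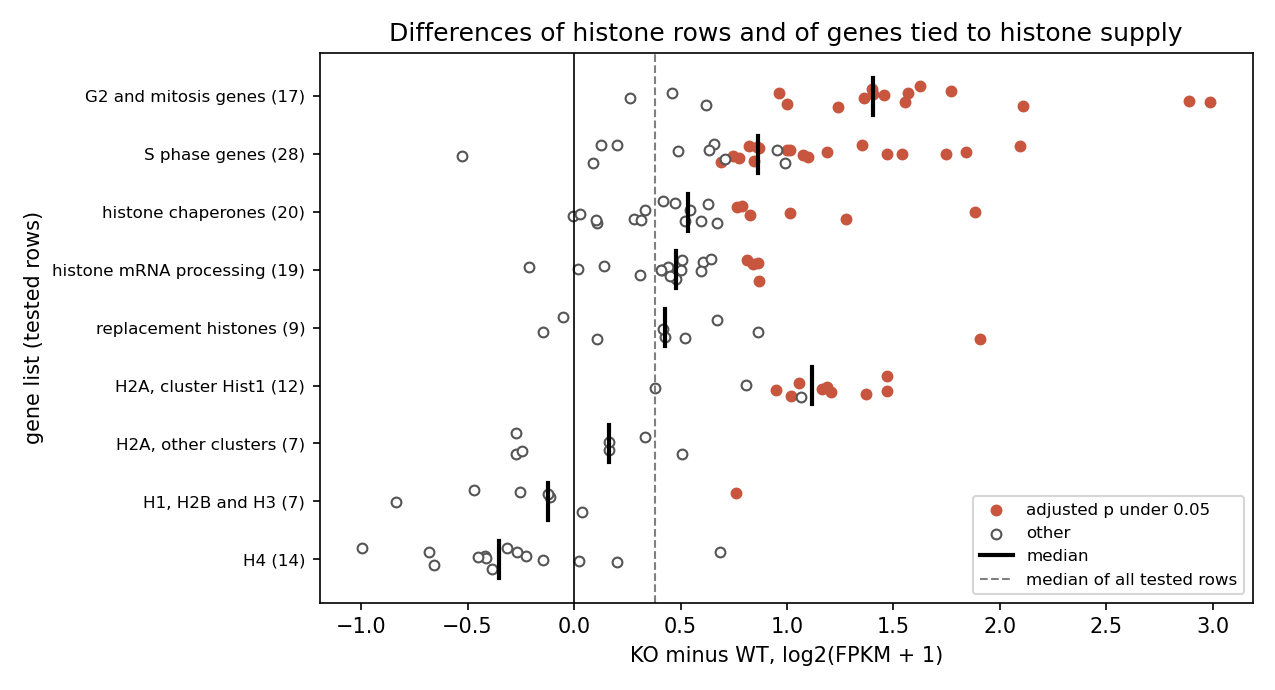
Difference between KO and WT libraries in log2(FPKM + 1), horizontal axis, for tested histone rows and for the 5 gene lists (vertical axis, with the number of tested rows). Filled points passed at a limma adjusted p under 0.05, black lines are medians, and the dashed line is the median of all tested rows. The medians of the lists run from 0.43 for replacement histones to 1.41 for G2 and mitosis genes.

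Of 8 rows of erythroid markers, 5 were tested and all 5 rose in KO as deposited, against 25.6% of all rows. Trimmed-mean scaling and quantile normalization each left 1. Alas2 and Slc4a1 passed the filter only through the KO libraries. The erythroid sum was lowest in WT 1 and highest in KO 1, as most Hist1 H2A rows were. That order was not particular to it: the sums of T cell markers, histone mRNA processing genes and histone chaperones had the same extremes. So did the trimmed-mean scaling factors, at 0.790 (WT 1), 0.918 (WT 2), 1.20 (KO 1) and 1.15 (KO 2). The sums of S phase and of G2 and mitosis genes were lowest in WT 2. Of the B cell markers 1 of 2 tested rose (Cd79b, which passed the filter only through the KO libraries), and of the myeloid markers 1 of 2. The part of other cell types and of the proliferation genes in the H2A difference was not tested. In bulk RNA, more cells of a dividing type and more histone RNA per cell cannot be told apart.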

How the data were processed

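Libraries were made with the NEBNext Ultra kit from 200 ng of total RNA (Direct-zol extraction), per the labels' protocols. The submitters' processing notes name Bowtie 0.12.2 and the mouse build mm8. No counting program, annotation or rule for reads that fit several genes is named in the sources used here. For each library the authors deposited 1 table of FPKM values, with a gene symbol in each row and no counts.

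Members and gene lists were chosen with earlier results of these data known. A marker of the lists is not reported here and was left out of its sum and count. Tables were joined by row (several rows of 1 symbol were kept apart), rows reaching 1 FPKM in 2 or more libraries were kept (11074), and log2(FPKM + 1) was fitted in limma 3.58.1 (R 4.3.3), using an intensity trend and two-sided tests. P-values were adjusted by Benjamini-Hochberg over all rows tested, with a threshold of 0.05. A fold change on this scale understates the change of low genes, and ratios of mean FPKM are given beside it. The fit was tested on simulated data. Low FPKM values fell in steps that gave the depth, assuming fragments of 200 bases: 68.8 to 73.5% of them lay within 5% of a whole fragment, so counts were not recovered and no count test was run. Sums and shares by type carry no test and count every row, including equal or nearly equal rows of 1 symbol.

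Named were Ripk1, all histone rows that passed, the 3 highest rows of each type, the 3 largest rises and falls, and up to 5 genes of each list by smallest unadjusted p. Alternatives were other pseudocounts, filters and scalings, the replicate block, leaving out each library, no trend and, chosen after seeing the data, removal of a trend with transcript length. Hairpins, coding sequences and unique stretches came from GENCODE M21 (GRCm38) and promoters from RefSeq (GRCm38.p6). All 68 symbols matched, 62 of them with a promoter. No coordinates are printed, as these are not the build of the files.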

Additional observations from a re-analysis of the deposited data

How the results depend on the processing

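The number of genes that passed in limma was 2832 higher and 111 lower in KO as deposited. Trimmed-mean scaling gave 455 and 402, and quantile normalization gave 179 and 77. There were 3 and 0 with no filter on low values, and 9 to 2189 and 0 to 123 when each library was left out in turn. At a threshold of 0.1, 267 were lower. The number of histone rows higher was 10, and it was 0 with quantile normalization, trimmed-mean scaling or no filter, and 0 to 14 when each library was left out. The number lower was 0, and 0 to 8 when each library was left out. Without KO 2 those 8 were Hist1h1c, 5 H4 rows and the 2 rows of Hist2h2aa1. The median difference of the histone rows was 0.03. It was -0.15 to 0.29 over the libraries left out, 1.11 with a filter of 5 FPKM (12 rows tested), -0.24 with trimmed-mean scaling, -0.36 under quantile normalization and 0.50 with the length trend removed, where 14 rows were higher. The log2 ratio of summed FPKM ran, over the libraries left out, from -1.21 to 0.031 for H1 (main value -0.72) and from -0.22 to 0.33 for H2B (main value 0.03). After trimmed-mean scaling it was -0.42 for H2B, 0.45 for H3 (main value 0.90) and -0.87 for H4 (main value -0.43). The H2A ratio kept its direction in all of these, from 0.59 to 1.49.

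Among the named rows, directions turned for a few that did not pass. Hist1h1e was at 0.012 with the length trend removed. Hist1h2bc was at 0.10 without WT 2 (range over the libraries left out -0.61 to 0.10) and 0.066 with the length trend removed. Hist1h4d was at 0.53 without WT 2, 0.08 without KO 2 (range -0.98 to 0.53) and 0.10 with the length trend removed. Hist1h4m was at -0.50 without WT 1 (range -0.50 to 1.86). Hist3h2ba was at -0.21 without WT 1, -0.12 without KO 2 (range -0.21 to 0.28), -0.33 with trimmed-mean scaling and -0.42 under quantile normalization. H2afy was at -0.027 after trimmed-mean scaling. Rows that were not named turned too: without KO 1, 9 of the 14 tested H4 rows were above 0, against 3 with all libraries. The cause of these changes was not tested.

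The labels number the libraries 1 and 2 in both groups but do not say that a number marks a shared mouse, batch or day, so the libraries share only a number. Same-numbered deviations correlated at 0.108 across genes. With the replicate number as a block, 3909 genes were higher and 230 lower, and 12 histone rows were higher and 4 lower.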
